A study of Mus musculus with 18 samples.

Results

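The genes of the mitochondrial respiratory chain and the ATP synthase were followed in myotubes of C2C12, a mouse myoblast line whose cells fuse into muscle fibres in culture, after dexamethasone (Dex), a synthetic ligand of the glucocorticoid receptor. They were chosen by symbol in the platform's probe annotation, taking every gene whose symbol starts with Nduf, Uqcr or Atp5, or with Cox4, Cox5, Cox6, Cox7 or Cox8, and the genes Sdha, Sdhb, Sdhc, Sdhd and Cyc1. This gave 88 of the 19057 named genes on the array, measured by 136 probes. By the complex they belong to, 34 are subunits of complex I, 4 of complex II, 8 of complex III, 16 of complex IV and 16 of the ATP synthase. The remaining 10 are 8 assembly factors of complex I (Ndufaf1 to Ndufaf8), the supercomplex factor Cox7a2l and 1 entry named as a pseudogene, Ndufs5-ps. Ndufa4 was counted under complex IV, where its protein is now placed.

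Total RNA was measured on Illumina mouse bead arrays, 18 in all. The groups were Dex at 6 h (4 arrays) and Dex at 24 h (5 arrays), each at 1 uM, and ethanol at 6 h (4 arrays) and ethanol at 24 h (5 arrays), where ethanol is the vehicle at 0.01% of the medium volume. All cultures were of this 1 cell line and were kept in medium with 2% horse serum. The labels number up to 4 or 5 arrays a group, although the stated design is triplicate. Nothing says that these are separate cultures, and the p-values therefore rest on a spread that may be technical.

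The respiratory chain passes electrons from NADH (through complex I) and from succinate (through complex II) by way of coenzyme Q, complex III and cytochrome c to oxygen at complex IV. Complexes I, III and IV pump protons across the inner mitochondrial membrane, and the ATP synthase uses the returning protons to make ATP. Most subunits are encoded in the nucleus, a few in mitochondrial DNA, and several subunits of complex IV have a heart and skeletal muscle form beside a general one. Glucocorticoids are known to change both fuel use and protein breakdown in muscle.

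The promoters of some members whose Dex effect changed between the times are shown first. Whether their letters have a part in that change was not tested. Of the 6 members whose change was called both in the plain model and in the model with fewer degrees of freedom described below, 4 had a promoter in the RefSeq table (build GRCm38.p6). The lines give the 250 bases before the annotated start, 5′ to 3′, with the matches to the motifs searched in capitals.
Ndufb4, chr16:37654369-37654618, minus strand: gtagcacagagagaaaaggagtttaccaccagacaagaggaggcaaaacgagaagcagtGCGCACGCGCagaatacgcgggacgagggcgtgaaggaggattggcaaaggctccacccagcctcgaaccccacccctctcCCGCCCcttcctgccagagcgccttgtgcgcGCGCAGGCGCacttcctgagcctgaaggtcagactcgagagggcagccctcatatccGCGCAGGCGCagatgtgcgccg
Sdhd, chr9:50603850-50604099, minus strand: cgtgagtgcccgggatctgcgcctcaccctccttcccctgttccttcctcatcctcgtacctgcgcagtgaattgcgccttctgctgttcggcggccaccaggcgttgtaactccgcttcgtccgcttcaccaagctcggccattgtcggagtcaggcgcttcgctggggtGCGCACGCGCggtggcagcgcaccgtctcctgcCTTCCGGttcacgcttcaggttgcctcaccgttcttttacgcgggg
Atp5md, chr19:47090648-47090897, minus strand: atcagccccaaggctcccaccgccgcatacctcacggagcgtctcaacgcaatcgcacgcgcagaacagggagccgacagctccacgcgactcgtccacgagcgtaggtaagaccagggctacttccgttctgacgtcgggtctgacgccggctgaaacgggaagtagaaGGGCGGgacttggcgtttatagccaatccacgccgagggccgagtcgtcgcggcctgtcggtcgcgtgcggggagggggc
Atp5o, chr16:91931631-91931880, minus strand: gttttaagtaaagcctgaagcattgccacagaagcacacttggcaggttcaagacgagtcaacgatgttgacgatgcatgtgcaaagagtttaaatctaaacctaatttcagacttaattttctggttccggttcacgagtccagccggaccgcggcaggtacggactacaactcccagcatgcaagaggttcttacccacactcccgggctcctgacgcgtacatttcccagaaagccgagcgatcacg

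Of the 88 genes, 72 had a promoter in that table. The capitals mark matches on either strand to GCGCA and GCGC with any 1 base between them (NRF1, a regulator of nuclear genes for mitochondrial proteins) and CCGGAAG (the ETS type bound by GABPA, also called NRF2). They further mark GGGCGG (the general factor SP1), AAGATGG (YY1), TCAAGGTCA (estrogen-related receptors) and GNACA and TGTNC with any 3 bases between them (a palindromic glucocorticoid receptor element). No base of these 4 promoters was shared by 2 motifs. Ndufb4 held 3 NRF1 matches and 1 SP1 match, Sdhd held 1 NRF1 and 1 ETS match, Atp5md held 1 SP1 match, and the letters were not in the window of Atp5o. The NRF1 letters stood in 13 of the 72 members (18.1%), against 6.35% of the 15237 tested genes with a promoter. The ETS letters stood in 14 (19.4%), against 10.8%. The SP1 letters stood in 31 (43.1%, against 49.3%), the YY1 letters in 1 (1.39%, against 4.84%), the estrogen-related receptor letters in 1 (1.39%, against 0.335%) and the glucocorticoid receptor letters in 0 (against 0.42%). Of the 14 members with a promoter that were called in any comparison below, 3 held the NRF1 and 3 the ETS letters. A match is a description of the letters, not evidence of binding.

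Before the results, some facts of the arrays bear on them. The 6 h arrays had medians of 99.8 to 100.4 and the 24 h arrays of 85.2 to 86.8, so levels were compared within a time only. Within groups the arrays spread in fewer directions than their number allows. Of 6 possible directions at 6 h 1 held almost no spread (2.08e-05% over the 786 brightest genes), and of 8 at 24 h 3 did (0.000293%, 0.000107% and 2.42e-05%). The model counts 14 residual degrees of freedom although 4 of these directions are missing, so the counts of calls are also given with the missing directions as covariates, which leaves the fold changes as they are and takes away those degrees of freedom. The cause of the missing directions was not tested. Markers of myotubes were present: of 18 measured, 1 read near the array median. Their summed intensity ranged from 289100 to 308500 with Dex and from 296000 to 302300 with ethanol at 6 h. At 24 h it ranged from 212900 to 230400 with Dex and from 210200 to 236700 with ethanol. Of 8 adipocyte markers 6, of 7 osteoblast markers all 7, and of 10 markers of proliferating myoblasts 4 read near the array median. The summed level of 10 markers of proliferating myoblasts overlapped between Dex and ethanol at 6 h (2374 to 2603 and 2328 to 2652), and ranged from 1888 to 2127 with Dex and from 1710 to 1907 with ethanol at 24 h. The summed level of the 8 adipocyte markers ranged from 1168 to 1332 with Dex and from 1362 to 1576 with ethanol at 6 h, without overlap, and from 1182 to 1389 with Dex and from 1000 to 1198 with ethanol at 24 h. Of these 8, 1 was called lower and 0 higher at 6 h (12.5% lower, against 4.39% of all genes). At 24 h 1 was called higher and 0 lower (12.5% higher, against 8.39%). The summed level of the 7 osteoblast markers ranged from 710.2 to 737.1 with Dex and from 727.4 to 816 with ethanol at 6 h, and from 607.3 to 649.9 with Dex and from 605.2 to 636.3 with ethanol at 24 h. The part of these lists in the results below was not tested. In such bulk samples fewer cells of a type and less RNA per cell cannot be told apart.

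The probes of 9 members read within 1.5 times the array median at both times, and whether these probes detect their transcripts is unknown. They were Ndufs1, Sdha, Uqcrfs1, Atp5k, Ndufaf6, Cox4i2, Cox6b2, Cox7b2 and Cox8c. The first 3 of these encode core parts of complexes I, II and III: Ndufs1 an iron-sulphur subunit, Sdha the flavoprotein and Uqcrfs1 the Rieske protein. Sdha read 94.0 ± 6.62 with Dex and 90.2 ± 4.91 with ethanol at 6 h (SD, n = 4 each). None of these 9 was called in any comparison, and for them the array gives no usable answer.

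After 6 h with Dex the members that passed the test all fell. Of the 88 members, 11 fell and 0 rose (limma, adjusted p under 0.05 over 19057 genes), and the largest fall was that of Ndufb9, an accessory subunit of complex I, at 0.65-fold. The 11 make 12.5% of the members, while 4.39% of all genes tested were called lower and 4.67% higher (9.06% in either direction). By complex, 5 were subunits of complex I, 1 of complex II, 1 of complex III, 1 of complex IV and 3 of the ATP synthase. With covariates for the missing directions, 7 members fell and 0 rose, where 1.98% of all genes were called lower, 2.48% higher and 4.46% in either direction. The groups did not overlap, with Dex lower, for 9 members (10.2%, against 5.31% of all genes) and, with Dex higher, for 0 members (against 5.59%). Most members moved little: the median log2 fold change was -0.04, against 0.00 over all genes, and the values ran from -0.61 to 0.24.

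**Figure D1:**
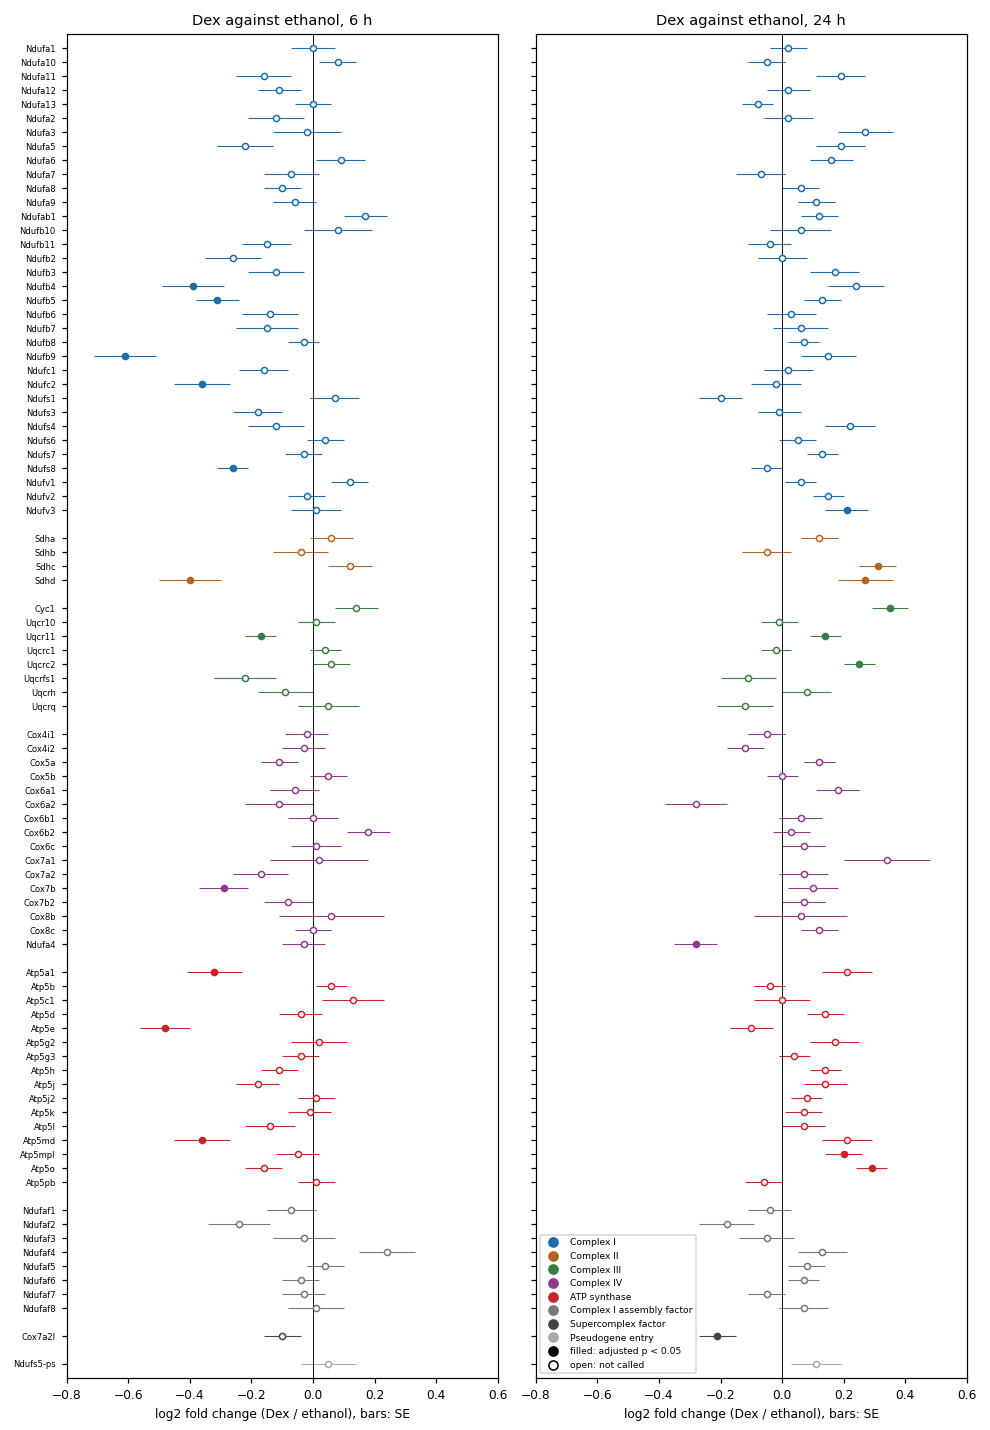
Log2 fold change of Dex over ethanol at 6 h (left) and 24 h (right) for the 88 members, one row each, grouped by complex; points are estimates of the model, bars are standard errors, and filled points passed an adjusted p of 0.05. At 6 h the 11 filled points all lie left of 0; at 24 h 8 lie right of 0 and 2 left.

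Of the 34 subunits of complex I, 5 fell at 6 h, and 4 of these falls were also called with covariates for the missing directions. Ndufb9, an accessory subunit of the membrane arm, read 872, 869.6, 862 and 1073 on the 4 Dex arrays, against 1139.5, 1432, 1555 and 1515 on the 4 ethanol arrays. All Dex arrays lay below all ethanol arrays, and the difference on the log2 scale was -0.61 (SE 0.10, limma adjusted p = 0.000107). Ndufb5, another accessory subunit of that arm, read 1136, 1346, 1132 and 1238 with Dex, against 1493, 1516, 1471 and 1518 with ethanol (-0.31, SE 0.07, limma adjusted p = 0.00407). Here too the groups did not overlap, and the ethanol arrays lay close together.

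Ndufb4 read 256, 263, 317 and 351 with Dex, against 312, 355, 436 and 463 with ethanol, and the highest 2 Dex arrays exceeded the lowest ethanol array. Its log2 fold change was -0.39 (SE 0.10, limma adjusted p = 0.0151), and the call was lost without any 1 of 4 arrays (ethanol replicates 3 and 4, Dex replicates 1 and 2). Ndufc2 read 2843, 3823, 3065 and 3948 with Dex, against 3869.9, 4696, 4263 and 4589.8 with ethanol, so that the groups touched at 1 array (-0.36, SE 0.09, limma adjusted p = 0.0148). Its call was lost with the missing directions as covariates (limma adjusted p = 0.0521) and without Dex replicate 1 or 3. The second, dimmer probe of Ndufc2 gave -0.27 (limma adjusted p = 0.0234 over all probes).

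Ndufs8, an iron-sulphur subunit of the peripheral arm that carries electrons to coenzyme Q, fell by 0.26 on the log2 scale (SE 0.05, limma adjusted p = 0.00268). It read 4315, 4670, 4581 and 4919.9 with Dex, against 5331, 5451, 5679.7 and 5655 with ethanol, with no overlap. By the probe used, the other 29 subunits of complex I did not pass the test at 6 h. Of the 34, 10 had a positive (29.4%, against 51.2% of all genes) and 24 a negative fold change, with a median of -0.10. Ndufv1 (0.12, limma adjusted p = 0.243), which binds NADH, was one of those not called. Dimmer probes of Ndufa5, Ndufa8 and Ndufab1, which averaged 241, 2610 and 117, gave -0.54, -0.32 and -0.24. Their limma adjusted p over all probes was 0.00401, 0.0235 and 0.0159. Further unused probes of Ndufab1, which averaged 3980 and 5570, gave -0.09 and 0.07 (limma adjusted p = 0.55 and 0.523 over all probes). None of the 8 assembly factors passed the test. The smallest p among them belonged to Ndufaf4 (0.24, SE 0.09, limma adjusted p = 0.095) and Ndufaf2 (-0.24, SE 0.10, limma adjusted p = 0.148).

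In complex II, Sdhd, a membrane anchor that also binds heme, fell at 6 h. It read 667, 596, 709 and 643 with Dex, against 746, 849, 853 and 1028 with ethanol, and the groups did not overlap (-0.40, SE 0.10, limma adjusted p = 0.0118). Without ethanol replicate 4, the highest array, the call was lost (-0.32, limma adjusted p = 0.0551). The other membrane anchor, Sdhc, had 0.12 (SE 0.07, limma adjusted p = 0.284), and the iron-sulphur subunit gene Sdhb had -0.04 (limma adjusted p = 0.865). Another probe of Sdhb, which averaged 1610 against 1980 for the probe used, gave -0.32 (limma adjusted p = 0.00984 over all probes). The remaining probe of Sdhb, which averaged 95.1, gave -0.09 (limma adjusted p = 0.531 over all probes). The bright probes of Sdhb thus disagreed at 6 h, and which of them reflects its transcript was not tested.

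In complex III, Uqcr11, a small accessory subunit, read 14510, 15115, 13983 and 13944 with Dex, against 15940, 16635, 15518 and 16730 with ethanol. The groups did not overlap, but the fall was small (-0.17, SE 0.05, limma adjusted p = 0.0426). It was not called with the missing directions as covariates (limma adjusted p = 0.213) or without any 1 of 6 of the 8 arrays (all but ethanol replicate 3 and Dex replicate 2). In complex IV, Cox7b fell by 0.29 (SE 0.08, limma adjusted p = 0.0322). It read 301, 365, 353 and 415 with Dex, against 468.5, 391.9, 492.7 and 393.3 with ethanol, and the highest Dex array exceeded the 2 lowest ethanol arrays. This call was lost with the missing directions as covariates (limma adjusted p = 0.106) and without any 1 of 5 arrays (ethanol replicates 1 and 3, Dex replicates 1, 2 and 3).

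Of the ATP synthase, subunits of both the catalytic head and the membrane part fell at 6 h. Atp5e, the epsilon subunit of the central stalk, read 309.6, 324, 331 and 346 with Dex, against 412, 403, 507 and 521 with ethanol. The groups did not overlap, and the log2 fold change was -0.48 (SE 0.08, limma adjusted p = 0.00025), the second largest fall among the members. Atp5a1, the alpha subunit of the catalytic head, read 1644, 1647, 1669 and 1927 with Dex, against 2028, 1883, 2578 and 2151 with ethanol. The highest Dex array exceeded the lowest ethanol array (-0.32, SE 0.09, limma adjusted p = 0.0203). The call was lost with the missing directions as covariates (limma adjusted p = 0.0713), without any 1 of ethanol replicate 3 and Dex replicates 1, 2 and 3, and with the mean of both probes (-0.14, limma adjusted p = 0.199), the second of which read 101 on average.

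Atp5md, a small membrane subunit associated with synthase dimers, read 174, 198, 188 and 200.4 with Dex, against 232, 258, 230.4 and 252 with ethanol, without overlap (-0.36, SE 0.09, limma adjusted p = 0.00881). Its second probe read 80.7 on average, below the array medians, and the mean of both probes gave -0.15 (limma adjusted p = 0.101). Atp5b, the beta subunit that bears the catalytic sites, was not called. It averaged 37400 ± 974 with Dex and 35800 ± 1440 with ethanol at 6 h (SD, n = 4 each; 0.06, SE 0.05, limma adjusted p = 0.537).

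**Figure D2:**
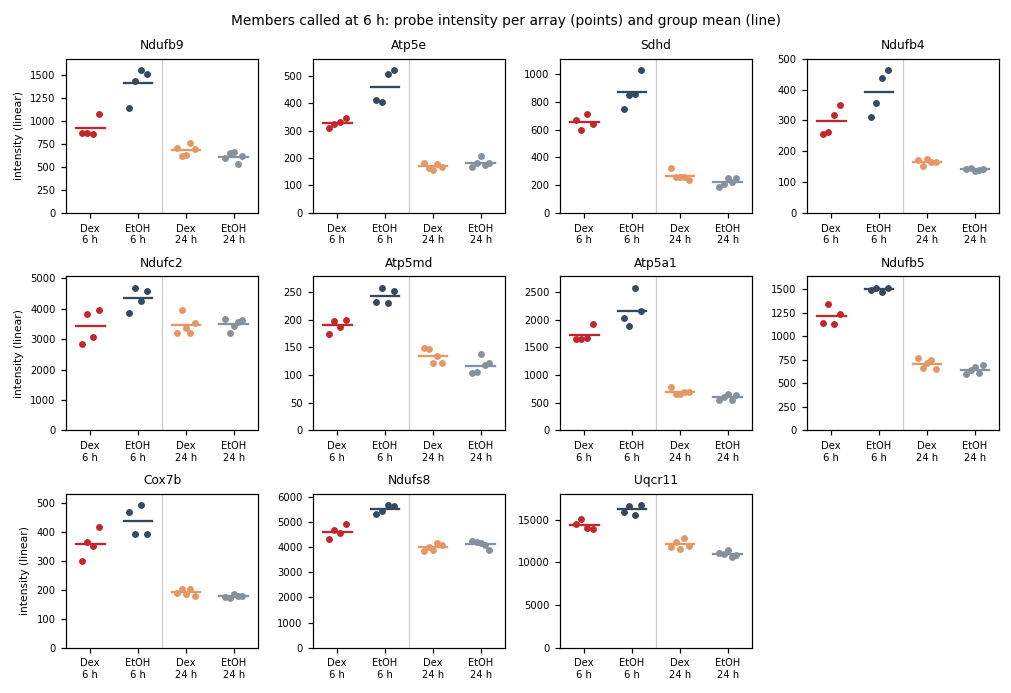
Probe intensity (linear scale, from 0) on each array for the 11 members called at 6 h, in the order of their fold change; points are arrays, lines group means, with Dex left of ethanol at each time. The 4 Dex arrays at 6 h lie below the 4 ethanol arrays in 7 of the 11 panels, while Ndufb4, Ndufc2, Atp5a1 and Cox7b overlap.

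The members that fell at 6 h were mostly dim or of middle brightness on this array. Of the 15 members with a mean log2 intensity under 8, 3 fell, and of the 11 between 8 and 10, 4 fell. Among all genes in these ranges 2.87% and 8.23% were called lower. Of the 14 between 10 and 12, 2 fell (7.61% of all genes), and of the 48 above 12, 2 fell (6.11% of all genes). The median intensity over the 18 arrays was 827 for the 11 that fell and 5340 for the 77 not called. A probe's brightness reflects the probe as well as the transcript, and the part of brightness in the result was not tested.

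**Figure D3:**
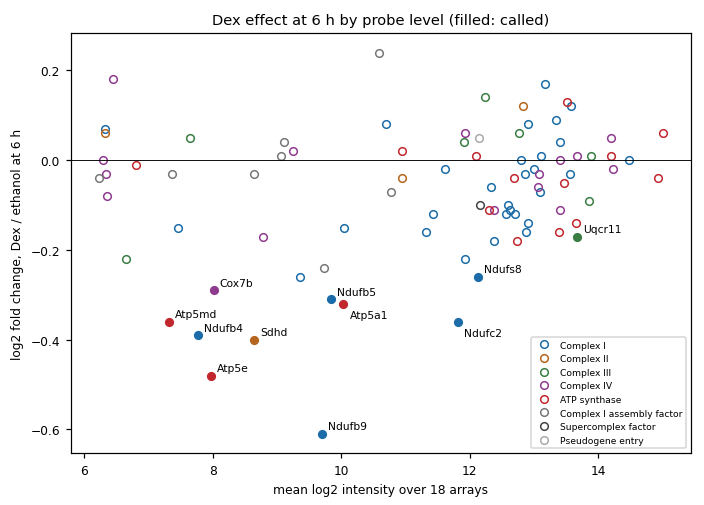
Log2 fold change at 6 h (vertical) against the mean log2 intensity over the 18 arrays (horizontal) for the 88 members, coloured by complex; filled points were called. Of the 11 called members 7 have a mean log2 intensity under 10, and the 48 members above 12 hold 2.

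After 24 h with Dex the picture differed. Of the 88 members 8 rose and 2 fell, led by Cyc1, the cytochrome c1 of complex III, at 1.28-fold. The rises make 9.09% of the members, close to the 8.39% of all genes called higher, and the falls 2.27%, against 8.1% of all genes called lower (16.5% in either direction). With covariates for the missing directions, 4 rose and 1 fell, where 4.47% of all genes were called higher, 4.42% lower and 8.89% in either direction. The groups did not overlap, with Dex higher, for 14 members (15.9%, against 8.42% of all genes) and, with Dex lower, for 3 members (3.41%, against 7.86%). The median log2 fold change was 0.07, against 0.00 over all genes, with a range from -0.28 to 0.35. Of the 88 values 63 were positive (71.6%, against 50% of all genes). The shares called differed with brightness. Among the 48 members with a mean log2 intensity above 12, 7 rose (14.6%) and 2 fell (4.17%). Of all genes there, 12% were called higher and 12.2% lower. Of the 14 between 10 and 12, 0 passed (13% of all genes higher, 14.6% lower). Of the 11 between 8 and 10, 1 rose and 0 fell (14.4% and 14% of all genes). Of the 15 under 8, 0 passed (6.02% and 5.44% of all genes).

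The rises at 24 h included 3 subunits of complex III. Cyc1 read 4482, 4796, 4431, 4428 and 4675 on the 5 Dex arrays, against 3614, 3443, 3598, 3374 and 3836 on the 5 ethanol arrays, with no overlap. The log2 fold change was 0.35 (SE 0.06, limma adjusted p = 0.000399). Uqcrc2, a core protein of the matrix side, read 6886, 6100.5, 6859, 6424 and 6573 with Dex, against 5407, 5656, 5324, 5254 and 5965 with ethanol (0.25, SE 0.05, limma adjusted p = 0.00154). All Dex arrays again lay above all ethanol arrays. Uqcr11 rose by 0.14 (SE 0.05, limma adjusted p = 0.0479), with 11602 to 12802 over the Dex arrays and 10686 to 11439 over the ethanol arrays, and this call was lost with the missing directions as covariates (limma adjusted p = 0.198) and without any 1 of 8 arrays (ethanol replicates 1, 2, 4 and 5, and Dex replicates 1, 2, 4 and 5). The other core protein, Uqcrc1, had -0.02 (limma adjusted p = 0.811).

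Both membrane anchors of complex II rose at 24 h. Sdhc read 7343, 8148, 7676, 8182 and 7856 with Dex, against 6635, 6302, 6273, 6190.1 and 6155 with ethanol, with no overlap (0.31, SE 0.06, limma adjusted p = 0.000548). Sdhd read 324, 255, 262, 257 and 239.8 with Dex, against 186, 208, 248, 221 and 249 with ethanol, where the lowest Dex array lay within the ethanol range (0.27, SE 0.09, limma adjusted p = 0.0443). The call of Sdhd was lost with the missing directions as covariates (limma adjusted p = 0.105), without any 1 of 7 arrays (ethanol replicates 1, 2 and 4, and Dex replicates 1 to 4) and without both arrays numbered 1, the highest Dex and the lowest ethanol array (0.14, limma adjusted p = 0.321).

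In the ATP synthase, Atp5o rose, the subunit OSCP that joins the catalytic head to the peripheral stalk. It read 11576, 10696, 10903, 11457 and 11203 with Dex, against 8888, 9232, 9408, 8331 and 9761 with ethanol. The groups did not overlap (0.29, SE 0.05, limma adjusted p = 0.000517). The 2 other probes of Atp5o, which averaged 134 and 637, gave 0.02 and -0.03 (limma adjusted p = 0.894 and 0.858 over all probes), and the mean of its probes gave 0.09 (limma adjusted p = 0.246). Atp5mpl, a small membrane subunit, had 0.20 (SE 0.06, limma adjusted p = 0.0351), with 11526 to 12786 over the Dex arrays and 10180 to 11405 over the ethanol arrays. Its call was lost with the missing directions as covariates (limma adjusted p = 0.118) and without any 1 of 6 arrays (ethanol replicates 1, 2 and 4, and Dex replicates 1, 3 and 4).

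Of the 34 subunits of complex I, 1 passed the test at 24 h. Ndufv3, an accessory subunit of the NADH-binding part, had 0.21 (SE 0.07, limma adjusted p = 0.044), with 7932 to 9431 over the Dex arrays and 6703 to 7879.7 over the ethanol arrays. Its call was lost with the missing directions as covariates (limma adjusted p = 0.122) and without any 1 of 7 arrays (ethanol replicates 2 to 5, and Dex replicates 2, 4 and 5), while a second bright probe of Ndufv3 gave 0.40 (limma adjusted p = 5.26e-05 over all probes). Next by p were Ndufa3 (0.27, limma adjusted p = 0.0566) and Ndufs1 (-0.20, limma adjusted p = 0.0566), whose probe read near the array median. A second probe of Ndufa3, which averaged 2240 against 3140 for the probe used, gave 0.32 (limma adjusted p = 0.0198 over all probes). A dim probe of Ndufb8, which averaged 184, went the other way at -0.35 (limma adjusted p = 4.2e-05 over all probes). The probe used for Ndufb8, which averaged 12200, gave 0.07 (limma adjusted p = 0.324 over all probes).

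The 2 members that fell at 24 h were Ndufa4, a subunit of complex IV, and Cox7a2l, which helps complexes III and IV associate into supercomplexes. Ndufa4 read 8904, 7931, 7747, 8280.4 and 8234 with Dex, against 9266, 9959, 10974, 9442 and 10470 with ethanol, with no overlap (-0.28, SE 0.07, limma adjusted p = 0.00381). Cox7a2l read 4505, 5222, 4625, 4623 and 5066 with Dex, against 5816, 5399.9, 5559, 5673 and 5363 with ethanol, with no overlap (-0.21, SE 0.06, limma adjusted p = 0.0108). The fall of Cox7a2l was not called with the missing directions as covariates (limma adjusted p = 0.0617) or without both arrays numbered 1 (limma adjusted p = 0.078).

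**Figure D4:**
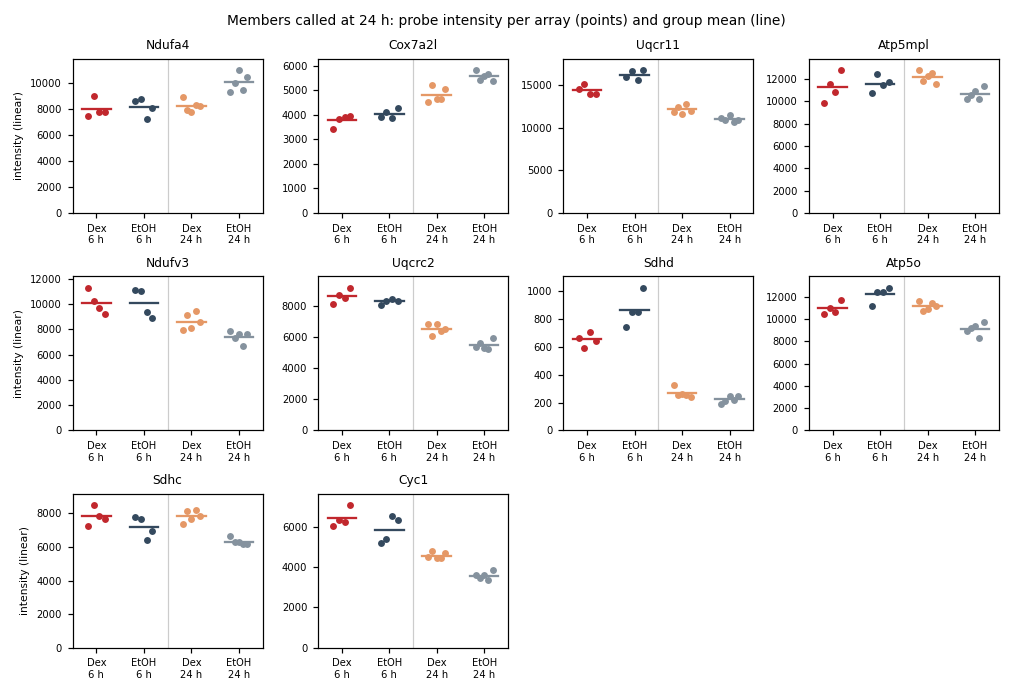
Probe intensity (linear scale, from 0) on each array for the 10 members called at 24 h, from the largest fall to the largest rise; points are arrays, lines group means, with Dex left of ethanol at each time. At 24 h the 5 Dex arrays and the 5 ethanol arrays do not overlap in any panel except that of Sdhd.

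The tissue forms of complex IV subunits did not pass the test at either time. Cox6a2, the heart and skeletal muscle form, averaged 4210 ± 652 with Dex and 5100 ± 876 with ethanol at 24 h (SD, n = 5 each), and its log2 value was lower by an amount that missed the test (-0.28, SE 0.10, limma adjusted p = 0.0621). The general form Cox6a1 averaged 8630 ± 393 with Dex and 7630 ± 289 with ethanol (0.18, SE 0.07, limma adjusted p = 0.08). Cox7a1, also of heart and skeletal muscle, had 0.34 (SE 0.14, limma adjusted p = 0.106) and the general Cox7a2 0.07 (SE 0.08, limma adjusted p = 0.629) at 24 h. The difference between 2 forms in their response was not tested. Cox8b, a muscle form, had 0.06 (SE 0.15, limma adjusted p = 0.838), and the main form of subunit 4, Cox4i1, had -0.05 (SE 0.06, limma adjusted p = 0.624). At 6 h the values of these 6 genes ran between -0.17 for Cox7a2 and 0.06 for Cox8b, and the smallest limma adjusted p was 0.26.

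The change of the Dex effect between the times was tested directly, as the effect at 24 h minus that at 6 h. For 11 members the effect was higher at 24 h than at 6 h and for 0 it was lower. These are 12.5% of the members, against 2.46% of all genes called higher and 2.48% called lower (4.94% in either direction). When those directions were covariates, 6 members were called higher and 0 lower, where 0.598% of all genes were called higher, 0.619% lower and 1.22% in either direction. Of the 11, 4 were subunits of complex I (Ndufb9, Ndufb4, Ndufb5 and Ndufa5), 1 of complex II (Sdhd), 1 of complex III (Uqcr11), 1 of complex IV (Cox7b) and 4 of the ATP synthase (Atp5md, Atp5a1, Atp5o and Atp5e). The median change over the members was 0.12, against 0.00 over all genes. Counts of called changes in lists of related functions are given below.

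Ndufb9 showed the largest change at 0.77 (limma adjusted p = 0.00125), with -0.61 at 6 h and 0.15 at 24 h. Its 24 h values were 705, 618, 628, 761 and 694 with Dex, against 595, 650.4, 668, 528 and 623 with ethanol, which overlap. Sdhd followed at 0.67 (limma adjusted p = 0.00543) and Ndufb4 at 0.63 (limma adjusted p = 0.00867). Sdhd and Uqcr11 were called lower at 6 h and higher at 24 h, as were 29 of all 19057 genes (0.152%). The fold change was negative at 6 h and positive at 24 h for 39 of the 88 members (44.3%, against 21.3% of all genes), and the reverse held for 8. This pattern covered 19 of 34 genes of complex I and 10 of 16 of the ATP synthase, 6 of 16 of complex IV, 2 of 8 of complex III and 1 of 4 of complex II. Among the assembly factors of complex I it covered 1 of 8.

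The calls of the change for Atp5e, Cox7b and Ndufa5 were the weakest. Each missed the threshold once those covariates were added (limma adjusted p = 0.151, 0.157 and 0.157) and without any 1 of 13, 14 and 11 of the 18 arrays. Ndufb5 and Uqcr11 were not called with those covariates either (limma adjusted p = 0.0506 and 0.116), and Atp5a1 and Atp5md not with the mean of their probes (0.27 and 0.25, limma adjusted p = 0.0621 and 0.0607).

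**Figure D5:**
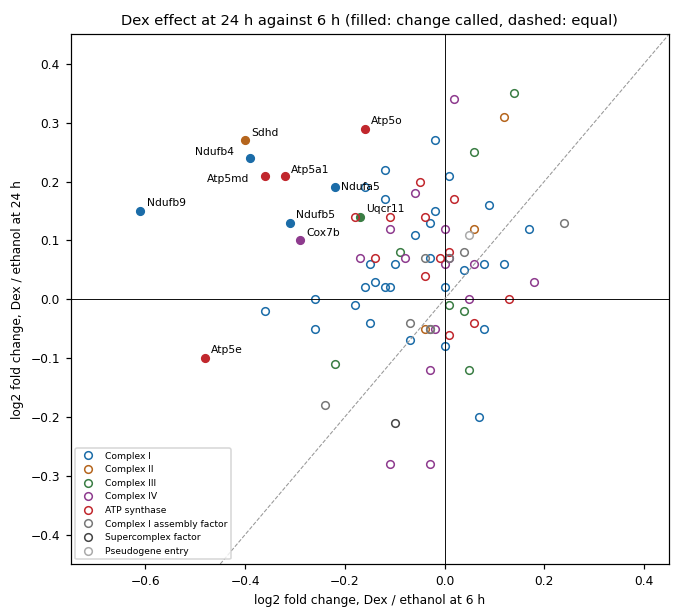
Log2 fold change of Dex over ethanol at 24 h (vertical) against that at 6 h (horizontal) for the 88 members, coloured by complex; filled points had a called change between the times and the dashed line marks equal effects. The 11 filled points all lie above the line, and 10 of them lie left of 0 at 6 h and above 0 at 24 h; Atp5e lies below 0 at both.

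Subunits encoded in mitochondrial DNA, which are not among the 88, were measured by 8 genes. Of these 1 fell and 0 rose at 6 h, where 4.39% of all genes fell (also 1 and 0 with covariates for the missing directions). At 24 h 2 rose and 0 fell, where 8.39% of all genes rose. ND4L, a membrane subunit of complex I, averaged 796 ± 77.1 with Dex and 1360 ± 305 with ethanol at 6 h (SD, n = 4 each; -0.75, SE 0.13, limma adjusted p = 0.000303). At 24 h COX2, which receives electrons from cytochrome c, averaged 5370 ± 319 with Dex and 4410 ± 290 with ethanol (SD, n = 5 each; 0.28, SE 0.08, limma adjusted p = 0.019). ATP6, which forms part of the proton channel, averaged 5810 ± 556 with Dex and 4840 ± 638 with ethanol (0.27, SE 0.08, limma adjusted p = 0.0178). With the missing directions as covariates neither rise at 24 h was called. The effect changed between the times for 3 of the 8, ND4L, COX2 and ATP6 (0.64, 0.45 and 0.45, limma adjusted p = 0.0315, 0.0363 and 0.0239), and for none of them with those covariates. Over all genes the change was called higher for 2.46% and in either direction for 4.94%, and in either direction for 1.22% with those covariates. ND1, ND4 and CYTB were not called at either time.

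Of 23 listed regulators of mitochondrial content, 2 rose and 0 fell at 6 h, where 4.67% of all genes rose and 4.39% fell (1 and 0 with covariates for the missing directions). At 24 h 7 rose and 1 fell, where 8.39% of all genes rose and 8.1% fell (3 and 0 with those covariates). The change between the times was called for 1 of the 23 (4.35%, against 4.94% of all genes in either direction; 0 with those covariates), and its median was 0.00. Ppargc1b, a coactivator of respiratory genes, averaged 483 ± 34.2 with Dex and 338 ± 46.6 with ethanol at 24 h (SD, n = 5 each; 0.52, SE 0.10, limma adjusted p = 0.000481). Esrra, the estrogen-related receptor alpha, averaged 1150 ± 114 with Dex and 900 ± 53.2 with ethanol (0.35, SE 0.06, limma adjusted p = 0.000191). Ppargc1a, the related coactivator, averaged 140 ± 14.1 with Dex and 111 ± 7.51 with ethanol (0.33, SE 0.07, limma adjusted p = 0.00255), near the array median. Prkaa2, a catalytic subunit of the energy sensor AMPK, rose by 0.45 at 6 h (SE 0.10, limma adjusted p = 0.00305). Tfam, which packages and transcribes mitochondrial DNA, had -0.07 at 6 h and -0.16 at 24 h (limma adjusted p = 0.651 and 0.113).

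The lists of neighbouring functions are read against the same shares, 4.67% of all genes higher and 4.39% lower at 6 h, and 8.39% higher and 8.1% lower at 24 h. No test compared these lists with the 88 members. Of 17 electron carrier and coenzyme Q genes, 1 rose and 2 fell at 6 h (5.88% and 11.8%), and 3 rose and 2 fell at 24 h (17.6% and 11.8%). With covariates for the missing directions these counts were 0 and 2 at 6 h, and 1 and 1 at 24 h. Coq2, which joins the ring and tail of coenzyme Q, fell by 0.31 at 24 h (SE 0.06, limma adjusted p = 0.000953), and Cycs, cytochrome c, rose by 0.18 (SE 0.06, limma adjusted p = 0.0347, and 0.13 with the missing directions as covariates). Of 21 genes for complex IV assembly, 0 passed the test at 6 h, and 1 rose and 1 fell at 24 h (4.76% each), with the same counts under those covariates. Of 20 for assembly of the other complexes, 1 rose and 2 fell at 6 h (5% and 10%), and 1 rose and 3 fell at 24 h (5% and 15%). With the covariates 0 rose and 1 fell at 6 h, and 0 rose and 2 fell at 24 h. Among these Timmdc1, an assembly factor of the membrane arm of complex I, averaged 290 ± 32.3 with Dex and 432 ± 20 with ethanol at 6 h (SD, n = 4 each; -0.58, SE 0.07, limma adjusted p = 6.59e-06), and it fell by 0.28 at 24 h (SE 0.07, limma adjusted p = 0.0043).

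Of 14 genes of the TCA cycle, which supplies NADH and succinate, 0 rose and 2 fell at 6 h (14.3% lower, against 4.39% of all genes), and 2 rose and 2 fell at 24 h (14.3% each, against 8.39% and 8.1%). With covariates for the missing directions neither fall at 6 h was called, and at 24 h 0 rose and 1 fell. Idh2, an isocitrate dehydrogenase, fell by 0.30 at 6 h (SE 0.07, limma adjusted p = 0.0097, and 0.0513 with covariates for the missing directions), and Mdh2, the malate dehydrogenase, fell by 0.29 at 24 h (SE 0.05, limma adjusted p = 0.000181). Of 10 carriers and channels that pass adenine nucleotides and phosphate, 0 rose and 2 fell at 6 h (20% lower), and 2 rose and 1 fell at 24 h (20% and 10%). With the covariates 0 rose and 1 fell at 6 h, and 2 rose and 1 fell at 24 h. Slc25a3, the phosphate carrier that serves the ATP synthase, averaged 9230 ± 676 with Dex and 12200 ± 2260 with ethanol at 6 h (SD, n = 4 each; -0.39, SE 0.09, limma adjusted p = 0.00655). Vdac2, a channel of the outer membrane, rose by 0.23 at 24 h (SE 0.06, limma adjusted p = 0.00636). For the change between the times, 2 of the 17 electron carrier and coenzyme Q genes (11.8%) were called higher and 0 lower. Of the TCA cycle genes 2 (14.3%), and of the carriers and channels 2 (20%), were called higher and 0 lower. Each assembly list held 1 call lower (4.76% for complex IV, 5% for the other complexes) and 0 higher. Over all genes 2.46% were called higher and 2.48% lower. With the covariates none of these lists held a call.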

How the data were processed

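Probe intensities of 18 arrays were used. Lumi made them, per the submitters' processing notes, and the authors deposited linear intensity values. Its version, and how background and arrays were adjusted, are unknown here. Log2 was taken of the deposited values (pseudocount 0), although the design had assumed log2 values. Of 45281 probes, 34885 carried 1 gene symbol, 18 several and 10378 none. Of these symbols 34807 were brought up to date by gene identifier (RefSeq, GRCm38.p6). The probe with the highest mean log2 over all arrays stood for its gene. For 19057 genes limma 3.58.1 (R 4.3.3; lmFit, eBayes) estimated 4 group means at once. Adjusted p is Benjamini-Hochberg over these genes, or over all probes where said, and calls are at 0.05. SE is the model's, SD that of arrays, whose number limits the precision. The procedure was tested on simulated data with independent noise on each array. Such data do not hold the missing directions of the real arrays, so the simulation cannot speak to their effect on the p-values.

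Members and lists were chosen with earlier results of these data known. Members were named if called, among the 2 smallest p of a complex, its brightest or dimmest, or an isoform pair of complex IV (Cox8a was not analysed here). Of the other lists, up to 3 called genes by smallest p were eligible, and Ppargc1a, Tfam and Cycs always. Sdhb, Uqcrc1, Ndufv1, ND1, ND4 and CYTB were named after their values were seen. Alternatives changed the probe rule, normalization, background, level filter, arrays, weights, trend and covariates.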

Additional observations from a re-analysis of the deposited data

Results flagged for a closer look

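The difference between the Dex effects at 24 h and at 6 h was called for 11 members, each with a higher effect at 24 h. The log2 differences were 0.77 for Ndufb9, 0.67 for Sdhd, 0.63 for Ndufb4, 0.56 for Atp5md, 0.53 for Atp5a1, 0.45 for Atp5o, 0.44 for Ndufb5, 0.41 for Ndufa5, 0.39 for Cox7b, 0.38 for Atp5e and 0.31 for Uqcr11 (limma adjusted p from 0.00125 for Ndufb9 to 0.047 for Ndufa5).

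In 4 of 156 groups of 4 or 5 arrays looked at for the 39 named members, 1 array stood apart by Dixon's 95% criterion, where chance alone gives about 1 in 20. Ndufb9 read 1073 on Dex replicate 4 at 6 h, against 862 to 872 on the other Dex arrays. Atp5a1 read 1927 on that same array, against 1644 to 1669 on the others. Atp5k read 109.3 on Dex replicate 1 at 6 h, against 123 to 125 on the others, near the array median. Cox8b read 2253 on ethanol replicate 4 at 24 h, against 3882 to 4758 on the others.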

How the results depend on the processing

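Under 17 alternatives at 6 h, 20 at 24 h and 27 for the change between times, the median log2 fold change of the members kept its sign and moved by less than the spread between arrays. It ran from -0.065 to -0.023 at 6 h, from 0.05 to 0.086 at 24 h and from 0.099 to 0.15 for the change. That spread, the SD of the members' median per array within groups, was 0.0454. It is larger than the size of the 6 h median itself (-0.037), so it is a loose measure of stability at 6 h. No called member changed sign in any of them. The counts of called members moved more. At 6 h 11 became 6 with each time fitted alone, 7 with the missing directions as covariates and 7 with array weights, and from 7 to 12 without a single array. The count was 7 without Dex replicate 1 and 7 without Dex replicate 3, and 13 with the mean of the probes. A single member was called higher with the mean of the probes and without Dex replicate 1, ethanol replicate 2 or ethanol replicate 4. At 24 h 10 became 18 with that time fitted alone, 5 with the missing directions as covariates, 26 with array weights (22 higher, 4 lower), and from 7 to 11 without a single array. For the change 11 became 6 with the missing directions as covariates, and from 8 to 16 without a single array. The calls that held in every alternative were 4 at 6 h (Ndufb9, Atp5e, Ndufb5 and Ndufs8), 4 at 24 h (Cyc1, Sdhc, Uqcrc2 and Ndufa4) and 4 for the change (Ndufb9, Sdhd, Ndufb4 and Atp5o).

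The cause of these differences was not tested, apart from the missing directions, which by construction leave 10 residual degrees of freedom in place of 14. With the replicate number within a time as a block, 9, 8 and 8 members were called at 6 h, at 24 h and for the change. Of these, 9, 6 and 8 were also called without the block. At 24 h the block ended the calls of Atp5mpl, Ndufv3, Sdhd and Uqcr11. The main model did not take the numbers as pairs. Deviations of same-numbered Dex and ethanol arrays correlated at 0.256, 0.15, -0.0797 and 0.0548 for the 6 h pairs. For the 24 h pairs the values were -0.928, -0.756, -0.729, -0.327 and -0.19, so these arrays did not vary independently. Where such deviations run opposite, the main model's SE for Dex against ethanol can be too small. Without detection p-values, signal over background is unknown, and the change of a dim gene may be understated. Most members with a called change between the times came closer to the array median at 24 h. Atp5md read 2.16 times that median at 6 h and 1.47 times at 24 h, and Ndufb4 3.44 and 1.79 times. Atp5e read 3.94 and 2.05 times, and Cox7b 3.97 and 2.15 times. Sdhd read 7.61 and 2.85 times, and Atp5a1 19.4 and 7.51 times. Ndufb5 read 13.5 and 7.87 times, and Ndufb9 11.6 and 7.53 times. Uqcr11 (153 and 135 times), Ndufa5 (39.6 and 44.7 times) and Atp5o (116 and 118 times) stayed far above it. For the other members with a called change, that change may therefore be misstated either way, which was not tested.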
